A study of Mus musculus with 8 samples.

Results

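The proteins described here are partners of TRIM28 (also KAP1 or TIF1β) in silent chromatin, its relatives, and factors that act on the same chromatin. The genes are *Setdb1*, *Atf7ip*, *Cbx1*, *Cbx3*, *Cbx5*, *Trim24*, *Trim33*, *Mphosph8*, *Fam208a* and *Morc3*. These 10 genes were taken by name from the 13704 gene names found in 2 RNA-seq count tables, for their place in the TRIM28 pathway, with earlier results of these data already known. Of the 10, 9 were listed under these symbols, and *Fam208a* was listed only under its older symbol *D14Abb1e* (its current RefSeq symbol is *Tasor*). All 10 had at least 10 reads over both libraries and were compared.

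TRIM28 is brought to DNA mainly by KRAB zinc finger proteins, and by attaching SUMO to itself it offers a landing site for the methyltransferase SETDB1, which trimethylates lysine 9 of histone H3. Heterochromatin protein 1 (HP1) reads that mark and also binds TRIM28 directly. The HUSH complex and MORC ATPases act on the same mark to keep retroelements and some genes silent, and TRIM24 and TRIM33 are the closest relatives of TRIM28 in the TIF1 family. In T cells this machinery is known for holding back endogenous retroviruses and genes of alternative T-cell fates.

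Naive CD4+ T cells of C57BL/6 mice were turned into Th17 cells, the IL-17-producing helper T cells, in culture. One library came from wild-type cells (WT), for which no Cre is named, and one from TRIM28fl/flxCD4cre cells (KO), in which Cre driven by the *Cd4* promoter deletes *Trim28* in T cells from the thymus on. The cytokines were TGF-β at 0.5 ng/ml and IL-6 at 20 ng/ml, the culture lasted 3 days, and an anti-CD3 re-stimulation followed in both genotypes. The number of mice or cultures behind a library is not stated. With 1 library per genotype, every difference given here is between 2 libraries without a replicate check, so genotype, culture and mouse cannot be told apart, nor can fewer cells of a type from less RNA per cell.

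The tables hold 6.65 M assigned reads for WT and 6.19 M for KO (M, 1000000 reads). Levels are given as CPM, reads per 1000000 assigned reads, with exact 95% intervals that express counting error alone. PCR copies of a molecule cannot be recognised, so the intervals may be too narrow even for counting error. The smallest level regarded as shown, 3 reads, was 0.451 CPM in WT and 0.485 CPM in KO. *Trim28* had 4485 reads in WT and 180 in KO (674 and 29.1 CPM), a 23.1-fold lower level in the KO library. The T cell markers *Cd3d*, *Cd3e*, *Cd3g*, *Cd4*, *Cd5* and *Cd28* were all listed, 0 of 6 rose or fell, and they summed to 4830 CPM in WT and 4180 in KO. The Th17 cytokine genes *Il17a* (335 CPM in WT and 61.6 in KO), *Il17f* (473 and 55.8) and *Il21* (532 and 199) fell, and the receptor gene *Il23r* was at 29.3 and 17.3 CPM. Markers of other cells summed to 12.5 and 7.11 CPM for B cells (5 of 5 listed), 7.97 and 4.69 CPM for CD8 T cells (2 of 2), and 0.150 and 0.485 CPM for myeloid cells (2 of 5, with *Lyz2*, *Csf1r* and *Adgre1* in neither table), and the 3 NK cell markers were in neither table.

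A gene is said to have risen or fallen where it changed at least 2-fold and had an adjusted p under 0.05 in an exact binomial test of its reads, adjusted by Benjamini-Hochberg over the 10881 genes with at least 10 reads. By this rule *Fam208a* fell, and no other gene of the 10 rose or fell. The test allows for counting error alone, and with edgeR's exact test and an assumed coefficient of variation between cultures of 0.2 or 0.4, 0 of the 10 genes fell. One of 10 falling compares with 5.53% of all tested genes, and 0 of 10 rising with 2.57%. A weaker criterion is that the counting interval of the fold change lies wholly to one side of 1. By it *Fam208a* and *Atf7ip* were lower in the KO library (2 of 10, against 25.0% of all tested genes), *Cbx3*, *Mphosph8* and *Morc3* were higher (3 of 10, against 23.5%), and the other 5 genes lay within counting error. The median log2 fold change (KO/WT) of the 10 genes was 0.09, and that of all tested genes was -0.02.

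**Figure D1:**
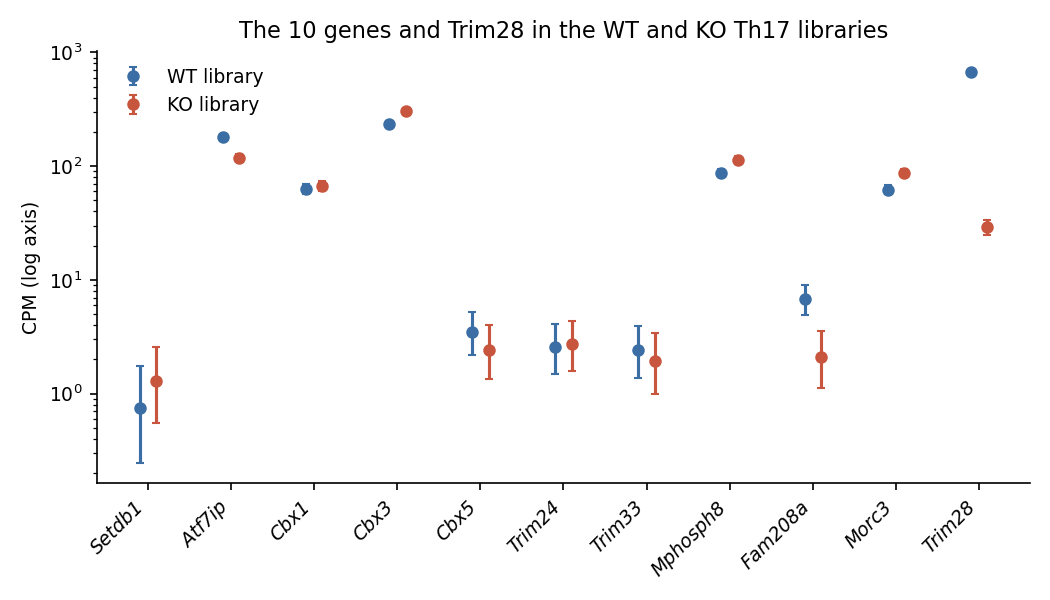
Level of each gene and of Trim28 in CPM (log axis) in the WT library (blue) and the KO library (red), 1 library each, with exact 95% counting intervals. Setdb1, Cbx5, Trim24, Trim33 and Fam208a lie between 0.752 and 6.77 CPM, the other 5 genes between 62.3 and 308 CPM, and only Trim28 differs by more than 10-fold between the libraries.

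The 10 genes lay in 2 bands of read depth, with wider counting intervals in the lower band. *Cbx3*, *Atf7ip*, *Mphosph8*, *Morc3* and *Cbx1* had 836 to 3478 reads over both libraries. *Fam208a*, *Cbx5*, *Trim24*, *Trim33* and *Setdb1* had 13 to 58. Among genes with at least 500 reads, a band set after the counts were seen, 1 of the 5 genes was lower beyond counting error against 31.7% of all 4677 such genes, and 3 of 5 were higher against 36.6%. Their median log2 fold change was 0.37, against 0.03 for all such genes. Of the 5 genes under 500 reads, *Fam208a* alone was past counting error, and the median was -0.30.

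The bands coincided with the number of transcripts that RefSeq annotates for a gene. Counting only coding transcripts with accession numbers below 1300000, an early range chosen after the counts were seen, the 5 genes of the upper band and *Trim28* have 1 transcript each. *Trim33* and *Fam208a* have 2, and *Setdb1*, *Cbx5* and *Trim24* have 3. By all curated RefSeq transcripts the bands are not separated, since *Cbx1*, *Cbx3* and *Mphosph8* then have 6, 2 and 3. Across the tables the median level over both libraries was also higher with 1 earlier transcript, at 8.45 reads per kilobase of the longest transcript per 1000000 reads (RPKM) in 9708 genes, against 0.839 RPKM in 3012 genes with 2 or more. *Uhrf1* and *Ehmt2*, chromatin regulators named after their values were seen, were in neither table, and their transcript numbers were not compared. Several earlier transcripts did not always go with few reads. *Resf1* has 3 and had 2540 reads over both libraries, and *Il21* and *Suv39h1*, with 2 each, had 4770 and 1841. These genes were picked after their values were seen. The tables are headed as uniquely assigned reads. Whether reads that fit more than 1 transcript of a gene were left out was not tested. As this was not tested, the low level of *Setdb1*, *Cbx5*, *Trim24*, *Trim33* and *Fam208a* is not taken here as low expression. The same limit holds for their fold changes.

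**Figure D2:**
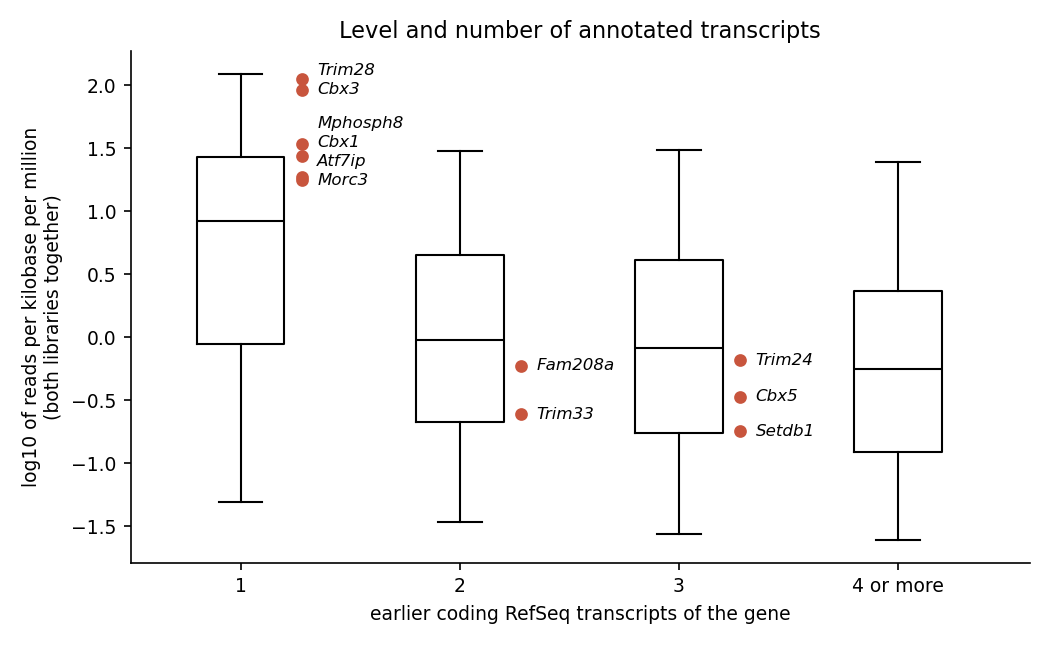
Level over both libraries (log10 of RPKM) of all listed genes by their number of earlier coding RefSeq transcripts; boxes show the median and quartiles and whiskers the 5th and 95th percentiles. The 10 genes and Trim28 are marked in red: the 5 genes with 836 to 3478 reads and Trim28 stand in the column with 1 transcript, and the 5 genes with 13 to 58 reads stand with 2 or 3.

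*Trim33* shows how little sequence can set the transcripts of a gene apart. Its 2 curated RefSeq transcripts differ only in a coding stretch of 51 bases on chr3:103353567-103353617 (plus strand, GRCm38), shown here because it is all of the 8870-base transcript that lies in 1 transcript alone. It is given in lower case from 5′ to 3′.

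Trim33 alternative coding stretch: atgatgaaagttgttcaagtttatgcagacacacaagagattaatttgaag

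For the other genes of the lower band the bases found in exactly 1 curated transcript number 38 for *Setdb1*, 124 for *Cbx5*, 244 for *Trim24* and 274 for *Fam208a*. Few such bases did not mark the lower band, since *Mphosph8*, with 1288 reads, has 36 and *Cbx1*, with 836 reads, has 176. *Cbx3* has 383, and in *Atf7ip* and *Morc3*, with 1 transcript each, every base counts (4527 and 4179).

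SETDB1 and ATF7IP work as a pair, ATF7IP holding the methyltransferase in the nucleus and shielding it from degradation. *Atf7ip*, a gene of 15 exons at chr6:136518789-136610850 (GRCm38, as all positions here), had 1206 reads in WT and 734 in KO, or 181 CPM (171 to 192) and 119 CPM (110 to 128). The 2 intervals do not overlap. Its log2 fold change was -0.61 (95% interval from -0.75 to -0.48), 1.53-fold lower in the KO library and short of the 2-fold limit. *Setdb1*, on chromosome 3 from 95323525 to 95357202 with 22 exons, had 5 reads in WT and 8 in KO, or 0.752 and 1.29 CPM. Its log2 fold change of 0.73 had an interval from -1.01 to 2.74, which spans fold changes from 0.496 to 6.68, so a difference was not detectable at this depth. The fold change of *Setdb1* was 2.63 times that of *Atf7ip*, with an exact interval from 0.755 to 10.2 that includes 1.

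HP1 is encoded by *Cbx5* (HP1α), *Cbx1* (HP1β) and *Cbx3* (HP1γ); each protein has a chromodomain that reads methylated lysine 9 and a chromoshadow domain that binds partners such as TRIM28. *Cbx3*, on chromosome 6 from 51470154 to 51483704, had the most reads of the 10 genes, with 1576 in WT and 1902 in KO. Its level was 237 CPM (225 to 249) in WT and 308 CPM (294 to 322) in KO, a log2 fold change of 0.38 (0.28 to 0.47). *Cbx1*, on chromosome 11 from 96788680 to 96808982, had 421 and 415 reads, or 63.3 and 67.1 CPM, with overlapping intervals and a log2 fold change of 0.08 (-0.12 to 0.28). *Cbx5*, on chromosome 15 from 103191546 to 103239904, had 23 and 15 reads, or 3.46 and 2.43 CPM, and a log2 fold change of -0.50 (-1.56 to 0.49).

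Within this family the 2 well-covered genes differed in how they changed. The fold change of *Cbx1* was 0.817 times that of *Cbx3* (exact interval from 0.700 to 0.953), a ratio that no scaling of the libraries can alter. *Cbx5* could not be told from either: the fold change of *Cbx1* was 1.51 times that of *Cbx5* (0.743 to 3.16) and that of *Cbx3* 1.85 times (0.921 to 3.83). Per kilobase of the longest transcript, *Cbx3* made up 75.0% (72.9 to 76.9) of HP1 reads in WT and 78.7% (76.8 to 80.4) in KO, *Cbx1* 24.7% and 21.1%, and *Cbx5* 0.364% and 0.206%. The share of *Cbx5* carries the limit given above for genes with several transcripts, and *Cbx3* has 6 named pseudogenes in RefSeq, with which it may share reads.

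TRIM24 (TIF1α) and TRIM33 (TIF1γ) share with TRIM28 a RING, B-boxes and coiled coil at one end and a PHD finger with a bromodomain at the other. *Trim24*, on chromosome 6 from 37870811 to 37968445, had 17 reads in each library, or 2.56 and 2.75 CPM, and a log2 fold change of 0.10 (-0.95 to 1.16). *Trim33*, a brake on TGF-β signaling through its binding of SMAD proteins, lies on chromosome 3 from 103279293 to 103358770 and had 16 reads in WT and 12 in KO (2.41 and 1.94 CPM; log2 fold change -0.30, from -1.52 to 0.86). Neither gene was past counting error in the library that had lost *Trim28*, and the upper ends of the intervals leave room for a 2.24-fold excess of *Trim24* and a 1.82-fold excess of *Trim33*. The 2 fold changes stood in a ratio of 1.33 (0.435 to 4.11). *Trim66*, the fourth gene of the family, was in neither table. Per kilobase, *Trim28* held 99.6% of the reads of the listed TIF1 genes in WT and 90.9% (87.0 to 93.9) in KO, and *Trim24* 0.303% and 6.89%, shares that rest on the 180 reads left for *Trim28*. These shares depend on the length used: per base found in exactly 1 curated transcript, a measure added after the data were seen, *Trim28* held 78.3% in WT and 15.4% in KO.

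The HUSH complex joins MPHOSPH8, whose chromodomain reads methylated lysine 9, to the scaffold TASOR (the product of *Fam208a*) and periphilin. *Fam208a*, on chromosome 14 from 27423674 to 27483555 with 24 exons, fell from 45 reads in WT to 13 in KO, or from 6.77 CPM (4.94 to 9.05) to 2.10 CPM (1.12 to 3.59). The 2 intervals are separate. Its log2 fold change was -1.65 (-2.70 to -0.77), 3.13-fold lower in the KO library, with an adjusted p of 0.000267 from the exact binomial test. Only 3.10% of tested genes had a lower log2 fold change. *Mphosph8*, on the same chromosome from 56668235 to 56697430, went the other way with 584 and 704 reads, or 87.8 CPM (80.8 to 95.2) and 114 CPM (106 to 123), and a log2 fold change of 0.37 (0.21 to 0.53).

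The counted reads of these subunits of 1 complex differed between the libraries in opposite directions. *Fam208a* has 2 earlier coding transcripts, so its fold change carries the limit given above for genes with several transcripts. Its call also did not hold at an assumed coefficient of variation of 0.2 or 0.4. The fold change of *Mphosph8* was 4.17 times that of *Fam208a* (exact interval from 2.18 to 8.51). *Pphln1*, the gene of periphilin, fell as well, with 20 reads in WT and 6 in KO (log2 fold change -1.55, from -3.24 to -0.26, adjusted p = 0.0265 from the exact binomial test), and it too has several transcripts, 5 by the count above. At its 3′ end *Fam208a* runs into *Ccdc66*, a convergent gene on the opposite strand, with up to 1513 bases of shared exon. *Ccdc66* had 235 reads in WT and 338 in KO (log2 fold change 0.63), and whether reads of one gene were counted for the other was not tested.

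The starts of *Fam208a* and *Mphosph8* are shown because their counted reads differed in opposite directions within a single complex. The starts are those of the curated RefSeq transcripts, which lie inside the gene spans given above, since the spans also take in predicted transcripts that begin further upstream. The 250 bases before each start were read for the palindrome TTCNNNGAA bound by STAT proteins and for the ETS core CCGGAA, on both strands and with overlaps allowed. Neither was found in either sequence, and they occur in 7.02% and 12.0% of 32851 such windows of all genes. Both windows are rich in CpG, in capitals here, with 27 in *Fam208a* (*Tasor*) and 19 in *Mphosph8* against a median of 6 over all windows. Sequences are from RefSeq, build GRCm38.p6, plus strand, at chr14:27428584-27428833 and chr14:56667998-56668247, from 5′ to 3′.

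Fam208a: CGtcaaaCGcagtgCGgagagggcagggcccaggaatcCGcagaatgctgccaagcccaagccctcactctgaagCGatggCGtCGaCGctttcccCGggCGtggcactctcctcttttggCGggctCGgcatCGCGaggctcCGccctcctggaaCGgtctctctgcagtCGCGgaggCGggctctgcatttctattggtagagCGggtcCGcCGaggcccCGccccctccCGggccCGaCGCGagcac

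Mphosph8: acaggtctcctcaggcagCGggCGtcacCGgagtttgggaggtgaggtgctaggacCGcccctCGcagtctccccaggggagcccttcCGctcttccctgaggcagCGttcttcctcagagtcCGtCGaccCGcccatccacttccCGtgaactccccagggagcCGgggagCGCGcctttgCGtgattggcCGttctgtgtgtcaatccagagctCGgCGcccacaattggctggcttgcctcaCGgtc

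Over the 9 genes of the 10 that have such a window (12 windows), TTCNNNGAA was in 0 and CCGGAA in 1, the start of *Setdb1*.

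*Morc3* encodes a nuclear ATPase with a CW domain that reads histone H3 and is needed to keep SETDB1-marked retroelements silent. It lies on chromosome 16 from 93832121 to 93876077 and had 414 reads in WT and 536 in KO. Its level was 62.3 CPM (56.4 to 68.6) in WT and 86.7 CPM (79.5 to 94.3) in KO, with intervals that do not overlap. The log2 fold change of 0.48 (0.29 to 0.67) was the highest of the 5 well-covered genes.

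**Figure D3:**
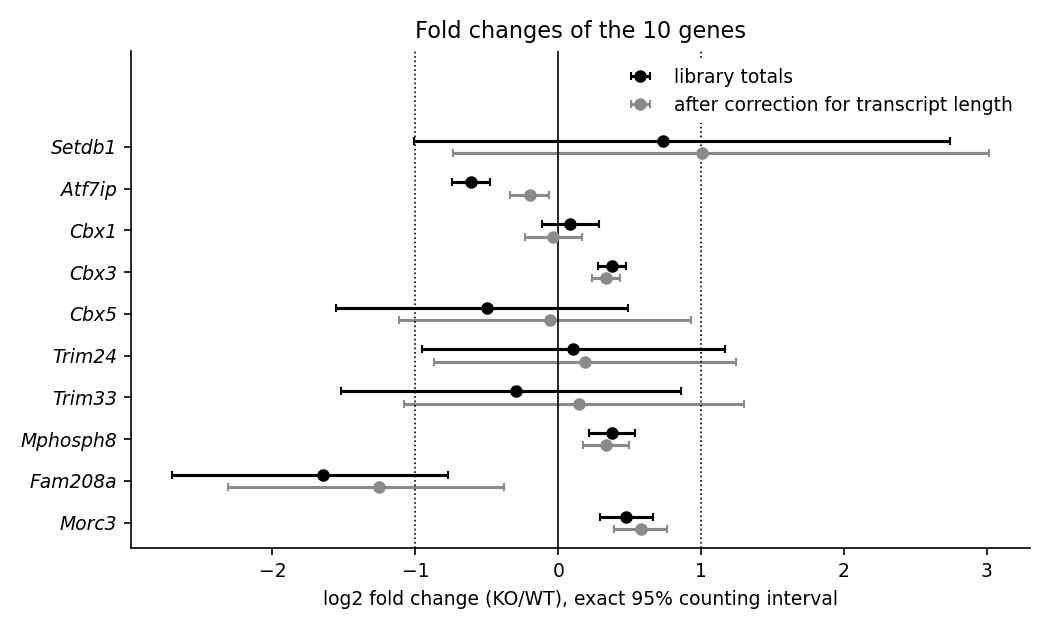
Log2 fold change (KO/WT) of the 10 genes with exact 95% counting intervals, scaled to library totals (black) and after correction for transcript length (grey); dotted lines mark 2-fold. Fam208a alone is beyond the lower dotted line, at -1.65 and at -1.26 after correction, while Atf7ip moves from -0.61 to -0.20.

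Fold changes in these libraries went down with transcript length, from a median log2 fold change of 0.29 in the shortest of 10 equal groups of genes to -0.44 in the longest group (Spearman's rho -0.37 across 10797 genes, which share both libraries and are not independent). The 3 genes lowest in the KO library, *Fam208a* (7590 bases), *Atf7ip* (8059) and *Cbx5* (8803), are, with *Trim33*, the 4 longest of the 10. With a smooth curve against length taken off, *Fam208a* was at -1.26 (-2.31 to -0.38, adjusted p = 0.0105 from the exact binomial test) and had still fallen. *Atf7ip* was at -0.20 (-0.33 to -0.07), and at -0.40 when the 4527-base RefSeq transcript was used in place of the longer GENCODE one. *Cbx3*, *Mphosph8* and *Morc3* were at 0.33, 0.33 and 0.58, still above counting error. What made fold changes follow length was not tested.

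**Figure D4:**
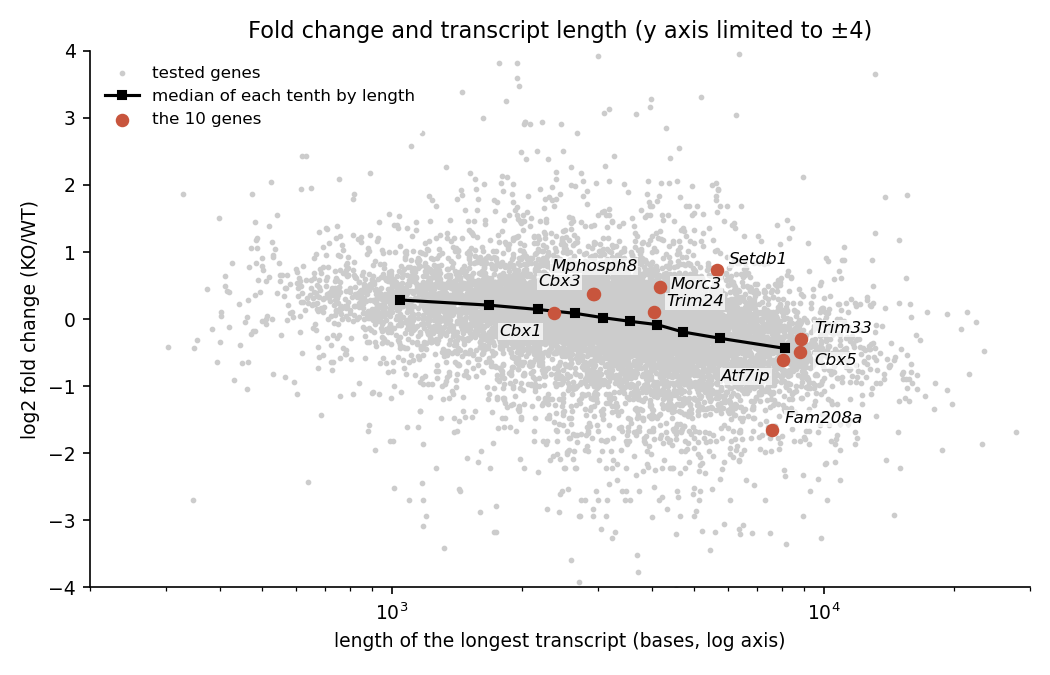
Log2 fold change (KO/WT) against the length of the longest transcript (log axis) for all tested genes (grey, axes limited, so that a few genes lie outside), with the median of each of 10 equal groups of genes by length (black) and the 10 genes (red). Atf7ip and Cbx5 lie close to the downward trend of long genes, Fam208a well below it, and Morc3 and Setdb1 above it.

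Among other genes that work with TRIM28, 1 passed the rule. Of all tested genes, 5.53% fell and 2.57% rose, shares that apply to the lists that follow as well. In the NuRD remodeler with its own class I deacetylases, which TRIM28 recruits to remove histone acetylation, 0 of 13 tested genes rose or fell (median log2 fold change -0.01). *Chd4*, an ATPase of NuRD, had the most reads (9255 and 7370, log2 fold change -0.22), and the lowest value was that of *Gatad2b*, named after its value was seen (577 and 271 reads, -0.98). In the SUMO pathway 0 of 14 tested genes rose or fell (median 0.09), and *Sumo2* had the most reads (2503 and 3187, 0.45). Of the other HUSH, MORC and ATF7IP genes, 3 of 7 had enough reads, *Pphln1* fell and 0 rose. The median log2 fold change, -0.96, was the value of *Morc2a*, named after its value was seen (99 and 47 reads, from -1.50 to -0.46). *Morc2a* was short of the 2-fold limit. *Resf1*, which works with SETDB1, had the most reads there (1331 and 1209, -0.03).

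Among genes that write or erase methyl groups on lysine 9, not only the trimethyl mark, 1 passed the rule as well. The same shares of all tested genes stand beside it. In the list of other methyltransferases, which also holds *Wiz* and *Zfp644*, zinc finger partners of these enzymes, 0 of 6 tested genes rose or fell (median 0.03). *Suv39h1*, which writes the mark at pericentromeric repeats, had the most reads (796 and 1045, log2 fold change 0.50, from 0.36 to 0.63). Of 10 demethylase genes, *Kdm7a* fell (634 and 252 reads, -1.22, from -1.44 to -1.01) and 0 rose (median -0.14); after the length correction *Kdm7a* was at -0.76 and no longer past 2-fold. *Kdm3b* had the most reads (1519 and 1098, -0.36).

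Among 17 tested genes of other heterochromatin factors, *Dnmt3a*, a de novo DNA methyltransferase, fell (15 and 4 reads, log2 fold change -1.68, from -3.85 to -0.15) and 0 rose (median -0.03). *Dnmt3a* lost its call after the length correction. It has 3 earlier coding transcripts, so its few reads carry the limit given above for genes with several transcripts. *Lbr*, the lamin B receptor that tethers HP1 to the nuclear envelope, had the most reads (2160 and 2729, 0.44). Of the 5 Polycomb chromobox genes, relatives of HP1 that read lysine 27, 0 rose or fell (median 0.02), and *Cbx6* had the most reads (1649 and 1448, -0.08).

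Proliferation genes were mostly higher in the KO library. Of 17, *Plk1* (922 and 2356 reads, log2 fold change 1.46) and *Ccnb1* (582 and 1348 reads, 1.32), both of mitosis, rose and 0 fell. Among all tested genes 2.57% rose. The median was 0.50, and 14 of the 17 were higher beyond counting error. That compares with 23.5% of all tested genes and 36.6% of those with at least 500 reads. *Top2a* had the most reads (5773 and 6781, 0.34). Their summed level was 5850 CPM in WT and 7800 CPM in KO, moving in the same direction as *Cbx3*, *Mphosph8* and *Morc3*. Its part in their difference was not tested.

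**Figure D5:**
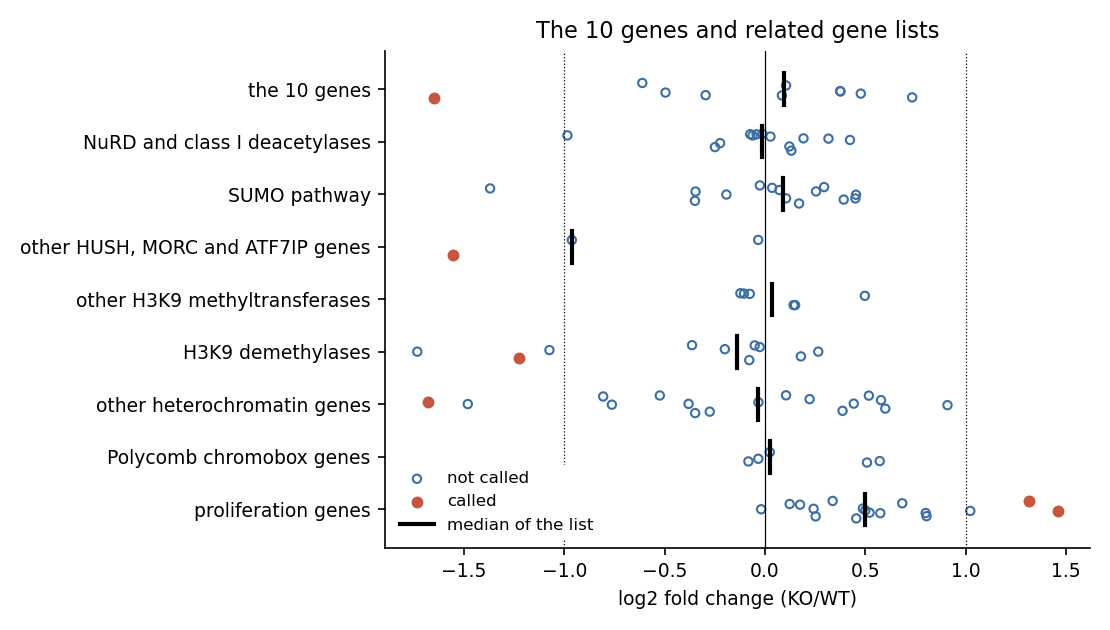
Log2 fold change (KO/WT) of each tested gene of the 10 and of 8 related lists; filled red points rose or fell by the 2-fold and adjusted p rule, open blue points did not, and black bars are list medians. Outside the proliferation list, whose median is 0.50, the genes that passed the rule are Fam208a, Pphln1, Kdm7a and Dnmt3a, and all 4 were lower in the KO library. Among all 10881 tested genes 602 fell and 280 rose. Kdm7a and Dnmt3a did not pass the rule after the length correction.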

How the data were processed

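RNA-seq of 1 WT and 1 KO Th17 culture was analysed, and the ChIP-seq part of the study was not analysed here. According to the study's methods, reads were mapped to mm10 (GRCm38) with SOAP2. The submitters' processing notes also list HTSeq, a counting program, without its role. They list Bowtie as well, which the study's methods name for mapping its ChIP-seq reads. Whether SOAP2 or Bowtie mapped the counted reads is not settled here. For each gene the authors deposited a count of uniquely assigned reads that was not normalized, in tables that list no gene at 0. The counting settings, strand handling and annotation are not given in the sources used here. The 10 genes, the related lists and the tests were chosen with earlier results of these data known.

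Of 13704 names, 12841 matched a RefSeq symbol and 804 a unique older symbol. Counts were scaled to library totals, 0.5 was added for log2 fold changes, and 10881 genes, those with 10 or more reads summed over the pair of libraries, were tested in SciPy 1.17.1 with a two-sided exact binomial test and Benjamini-Hochberg adjustment. This test compares libraries, not genotypes, because 1 library per genotype leaves no residual degrees of freedom for the quasi-likelihood fit of edgeR. Intervals of fold changes and CPM are Clopper-Pearson, and those of ratios of fold changes are exact conditional intervals of an odds ratio. Lengths are of the longest GENCODE M21 transcript (found for 99.2% of tested genes), and length or GC curves are loess fits of span 0.3 in statsmodels 0.14.6. Genes named outside the 10 are, in each list, those that rose or fell and the gene with the most reads, beside marker genes. *Gatad2b*, *Morc2a*, *Uhrf1*, *Ehmt2*, *Wiz*, *Zfp644* and the neighbour *Ccdc66* were named outside this rule, after their values were seen. The summed level of the Th17 markers and 1 further motif that was searched are not reported here. Alternatives used edgeR 4.0.16 (TMM factors and its exact test, with coefficients of variation that had to be assumed) and DESeq2 1.42.0 (size factors) in R 4.3.3. The calculations were tested on simulated data.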

Additional observations from a re-analysis of the deposited data

How the results depend on the processing

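The settings were changed 1 at a time. TMM, DESeq2 and upper-quartile scaling differed from library totals by -0.0194, -0.0188 and -0.0087 on the log2 scale. When edgeR was given a variation between cultures of 0.2 or 0.4 (coefficient of variation, assumed), the number of the 10 genes that fell dropped from 1 to 0, as *Fam208a* lost its call; at 0.1 it kept it. At a fold change of at least 1.5 the number was 2, with *Atf7ip* added. Matched by exact symbol alone, an alternative chosen after seeing the data, *Fam208a* drops out and 0 genes fell, with 1 gene lower beyond counting error. The length correction turned *Cbx1* to -0.035 and *Trim33* to 0.15 (0.17 with RefSeq lengths, added after seeing the data), both within counting error. With the median in place of the longest transcript length, the share of *Trim28* among TIF1 reads in KO was 94.6%. Per base found in exactly 1 curated transcript, also added later, it was 78.3% in WT and 15.4% in KO, and that of *Cbx3* among HP1 reads was 61.5% and 66.7%. Corrected for length, the list medians were 0.12 (NuRD), -0.69 (other HUSH, MORC and ATF7IP), 0.35 (other methyltransferases), -0.02 (demethylases), 0.02 (other heterochromatin) and 0.33 (Polycomb chromobox). The cause of these changes was not tested. No paired analysis was possible because each genotype has 1 library. No library could be left out for the same reason.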
